A study of Mus musculus with 6 samples.

Results

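The genes described here encode matricellular proteins, secreted proteins that sit in the extracellular matrix and act on cells through integrins and other receptors more than they build the scaffold. Matricellular proteins are typically low in the resting arterial wall and induced in injury and remodelling, and transforming growth factor-β (TGF-β) is a known inducer of several of them, including the gene that was named for it, Tgfbi. Fibronectin, a structural adhesion protein, was kept with them because it binds many of the others and shares their integrin receptors. The set held 10 genes of the 54532 in the expression table, and all 10 were found by symbol. They were chosen by name, starting from Tgfbi and Mamdc2 because their falls were among the largest between the groups, with Fbln7, Postn, Thbs1, Thbs2, Spp1, Sparc, Tnc and Fn1 added to them. The differences of these genes between the groups were therefore in view when they were picked, and they are given below as descriptions with no p-value. How many of them passed the threshold applied to all genes is given once, beside the share of all genes that did.

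The libraries came from mouse aortic smooth muscle cells (MASMCs), isolated per the study's methods from the abdominal aorta of wild-type mice, and given an adenoviral vector in culture. In 3 libraries the vector carried a control plasmid (Ad-Con, genotype label WT) and in 3 an overexpression plasmid for pyruvate dehydrogenase kinase 4 (Ad-PDK4, genotype label PDK4 overexpression), an enzyme which switches off pyruvate dehydrogenase in mitochondria by phosphorylating it. Per the study both groups were then exposed to angiotensin II, so neither group shows untreated cells. The comparison asks how the PDK4 vector alters the expression of these cells. The study's methods describe a PDK4 plasmid built in a pEnCMV vector with an HA tag, and the sources used here do not say whether the adenovirus carries the same promoter. The study calls the 3 libraries of a group biological replicates, but neither it nor the labels say whether they came from separate animals or cultures, so the spread and the p-values measure only what differed between these libraries, which may be technical.

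Values are FPKM, which divide a gene's fragments by gene length and library size, so levels can be compared between genes. Between 17588942 and 21861872 reads per library were recovered from the FPKM. Pdk4 itself was lower under the overexpression label, at 9.50, 10.4 and 10.1 FPKM in Ad-Con against 7.67, 7.40 and 7.38 in Ad-PDK4 (log2 fold change -0.42, limma adjusted p = 1.1e-03). Whether the count includes the vector's insert is not known. The groups are therefore called by their labels, and every direction below is given for Ad-PDK4 relative to Ad-Con. Of 12 smooth muscle markers 5 passed the filter on low values (a mean of at least 0.5 FPKM). Their list summed to 172.3 to 173.1 FPKM in Ad-Con and 134.7 to 145.0 in Ad-PDK4. Acta2, the smooth muscle actin, was at 78.0 FPKM in Ad-Con and 36.2 in Ad-PDK4 on average, while Cald1, the actin-binding caldesmon, was at 56.0 and 71.9 and Smtn, smoothelin, at 8.32 and 8.44. Tpm2 was at 27.8 and 22.1 FPKM and Lmod1 at 0.720 and 0.570. The rest of this list did not pass the filter. Among them Mylk was at 0.756 and 0.123 FPKM and Synpo2 at 0.134 and 0.133 on average. Myh11, the smooth muscle myosin heavy chain, had at most 10 reads in any library, Tagln at most 20, Cnn1 30, Des 16 and Myocd 5. Of 9 fibroblast markers 7 passed, and their summed level was 1606 to 1752 FPKM in Ad-Con and 845.7 to 929.2 in Ad-PDK4, most of it from Col1a1 and Col1a2. Dpt, at 191.5 and 74.1 FPKM on average, and Lum, at 7.465 and 3.31, shared this direction. Of the remaining fibroblast markers past the filter, Dcn was higher in Ad-PDK4, at 90.1 and 160.6 FPKM on average, as was Mfap5 at 7.95 and 10.7. Pdgfra was little changed, at 20.5 and 19.9 FPKM on average. Of 12 macrophage markers 8 had at most 3 reads in every library (Adgre1, C1qa, C1qb, C1qc, Itgam, Laptm5, Ptprc and Tyrobp). The summed macrophage list stood at 15.0 to 18.0 FPKM in Ad-Con and 5.95 to 7.49 in Ad-PDK4, a difference carried by Cd68 (14.2 and 4.24 FPKM on average). Lyz2 was at 1.51 and 1.98 FPKM and Csf1r at 0.258 and 0.640. Of 8 endothelial markers only Kdr passed the filter, and the summed list stood at 0.617 to 0.798 against 0.885 to 1.18 FPKM. Of 5 epithelial markers Krt18 and Krt19 passed, while Epcam had no reads, and this list stood at 83.1 to 95.9 against 34.4 to 40.2 FPKM. The part of these shifts in the differences below was not tested. In bulk RNA, fewer cells that express a gene and less of its RNA per cell cannot be told apart.

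Tgfbi (ENSMUSG00000035493, GRCm38 chromosome 13, 56609523 to 56639562, up to 17 exons) encodes a secreted protein with fasciclin domains that ties collagen to integrins. It was at 19.5, 20.6 and 21.98 FPKM in the libraries labelled Ad-Con, on 1494, 1362 and 1503 reads. In those labelled Ad-PDK4 it was at 2.27, 1.95 and 1.81 FPKM, on 156, 129 and 151 reads. All 3 libraries of one group lay about an order of magnitude above all 3 of the other. Mean levels were 20.7 ± 1.26 and 2.01 ± 0.236 FPKM (SD, n = 3), so Ad-PDK4 held 9.74% of the Ad-Con level. On the log2(FPKM + 0.1) scale, which all log2 fold changes here use and which understates those of low genes, the difference was -3.30 (SE 0.09), the 9th largest fall among 13423 genes past the filter.

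Postn encodes periostin, the fasciclin-domain paralogue of Tgfbi, which is prominent in injured and fibrotic tissue (ENSMUSG00000027750, chromosome 3, 54361109 to 54391037). It was scarcely expressed and did not pass the filter. Its reads numbered 39, 47 and 35 in Ad-Con and 3, 1 and 2 in Ad-PDK4, or 0.220, 0.308 and 0.222 against 0.0189, 0.00657 and 0.0104 FPKM. The groups did not overlap. The summed 121 and 6 reads gave a ratio of read rates of 0.0481, with an exact 95% interval of 0.0173 to 0.108. This interval covers counting error alone and leaves out the spread between libraries. PCR copies of 1 molecule are counted separately, so it may be too narrow even for counting error. Both fasciclin genes were thus lower under the Ad-PDK4 label, Tgfbi from a moderate level and Postn from one close to the limit of detection.

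Mamdc2 encodes a secreted proteoglycan with MAM domains (ENSMUSG00000033207, chromosome 19, 23302609 to 23448322). Its level was 22.8, 25.2 and 21.8 FPKM in Ad-Con and 4.33, 2.996 and 4.23 FPKM in Ad-PDK4. Every Ad-Con library was above every Ad-PDK4 library, and the second Ad-PDK4 library was the lowest of the 6. The means of 23.3 ± 1.76 and 3.85 ± 0.743 FPKM (SD, n = 3) differed by -2.58 on the log2 scale (SE 0.14), the 31st largest fall. In Ad-Con, Mamdc2 and Tgfbi stood side by side, with overlapping libraries, and in Ad-PDK4 Mamdc2 was the higher of the pair in each library.

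Fbln7 encodes fibulin 7, a calcium-binding adhesion protein of the fibulin family (ENSMUSG00000027386, chromosome 2, 128862981 to 128897034). It was at 8.92, 11.4 and 8.42 FPKM in Ad-Con and at 2.57, 2.0002 and 2.19 FPKM in Ad-PDK4, on 493 to 647 against 113 to 156 reads. The groups again stood apart, at 9.59 ± 1.603 and 2.25 ± 0.291 FPKM (SD, n = 3). The log2 difference of -2.04 (SE 0.14) was the 67th largest fall. Tgfbi, Mamdc2 and Fbln7 had no exonic overlap with another annotated gene, and no stretch of 75 bases of their longest transcripts recurred in the transcripts of another gene.

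The 250 bases before the RefSeq start sites (GRCm38.p6) were read for 7 of the 10 genes, in 10 windows. They are shown 5′ to 3′ for the genes with the fasciclin domain and for Fbln7, which were lower under the Ad-PDK4 label, and for Thbs2, whose groups overlapped. Capitals mark matches to 6 short motifs, searched on both strands. The letters searched were TATAAA for the TATA box, GGGCGG for the GC box, TGANTCA for the site of AP-1 factors, CAGAC for the site of SMAD factors, GGAATG for the site of TEAD factors, and CCAAT for the box of that name. No motif contains another. For Tgfbi and Fbln7 the RefSeq start lies downstream of the start of the annotated gene given above. The windows are chr13:56609336-56609585 (plus strand) for Tgfbi, chr3:54360857-54361106 (plus) for the Postn window at the annotated gene start, chr2:128863682-128863931 (plus) for Fbln7 and chr17:14694263-14694512 (minus) for Thbs2.
Tgfbi: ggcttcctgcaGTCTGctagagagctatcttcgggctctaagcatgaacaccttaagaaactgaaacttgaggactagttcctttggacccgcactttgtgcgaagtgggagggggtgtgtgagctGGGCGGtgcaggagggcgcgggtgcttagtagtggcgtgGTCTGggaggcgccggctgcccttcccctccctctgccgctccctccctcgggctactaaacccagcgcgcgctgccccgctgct
Postn: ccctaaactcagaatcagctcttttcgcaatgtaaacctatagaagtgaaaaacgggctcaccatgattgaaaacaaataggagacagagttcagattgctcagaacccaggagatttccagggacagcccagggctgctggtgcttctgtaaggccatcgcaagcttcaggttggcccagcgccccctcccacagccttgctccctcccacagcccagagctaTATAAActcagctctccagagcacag
Fbln7: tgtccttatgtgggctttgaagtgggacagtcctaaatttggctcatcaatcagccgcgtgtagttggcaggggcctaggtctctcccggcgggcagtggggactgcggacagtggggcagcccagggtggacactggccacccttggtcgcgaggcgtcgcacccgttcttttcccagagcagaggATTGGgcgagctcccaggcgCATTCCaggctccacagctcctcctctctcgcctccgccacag
Thbs2: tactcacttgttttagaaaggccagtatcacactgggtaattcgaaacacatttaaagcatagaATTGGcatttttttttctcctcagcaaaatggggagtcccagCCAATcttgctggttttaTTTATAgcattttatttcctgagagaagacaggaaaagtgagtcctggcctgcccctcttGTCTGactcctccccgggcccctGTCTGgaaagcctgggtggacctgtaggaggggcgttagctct

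The SMAD motif, the letters bound by the transcription factors of TGF-β signalling, occurred at 239 and 85 bases before the Tgfbi start and at 66 and 43 before the Thbs2 start. It was not in the Fbln7 window or the Postn window shown, but the other Postn window held it at 191 bases and the Sparc window at 35, and windows of Spp1 and Tnc held it as well. Of the 32851 windows of all genes, 42.2% held it. The GC box stood 124 bases before the Tgfbi start (32.7% of all windows held one) and the TATA box 26 bases before the Postn start (12.4%). Fbln7 had a TEAD site at 43 bases (12.6%) and a CCAAT box at 63 bases (33.8%), while Thbs2 had a TATA box at 126 bases and CCAAT boxes at 186 and 144. No window of the 7 genes held the AP-1 letters, which 6.75% of all windows did. These letter matches describe the sequence only.

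Fn1 encodes fibronectin, which cells assemble into fibrils on which collagen and several matricellular proteins are laid down (ENSMUSG00000026193, chromosome 1, 71585520 to 71653200, up to 46 exons). Its level was 496, 551 and 474 FPKM in Ad-Con and 228, 242 and 205 FPKM in Ad-PDK4. The highest Ad-PDK4 library was below the lowest Ad-Con library by a wide margin. The means of 507 ± 39.9 and 225 ± 18.8 FPKM (SD, n = 3) differed by -1.17 on the log2 scale (SE 0.08). Because the transcript is long, Fn1 took 0.585%, 0.641% and 0.556% of all reads in Ad-Con and 0.269%, 0.281% and 0.242% in Ad-PDK4. Its mean level was the 55th highest of all genes in the table in Ad-Con and the 162nd in Ad-PDK4. An antisense gene, Apol7d, overlaps 292 bases of its exons, and whether counting used strand is not stated.

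Sparc encodes a collagen- and calcium-binding glycoprotein that guides collagen deposition (ENSMUSG00000018593, chromosome 11, 55394500 to 55423183). It was the most abundant of the 10 genes under both labels, at 586, 617 and 577 FPKM in Ad-Con and 459, 475 and 455 FPKM in Ad-PDK4. The groups did not overlap, although the difference was small, with means of 594 ± 21.2 and 463 ± 10.3 FPKM (SD, n = 3) and a log2 difference of -0.36 (SE 0.05), which was -0.21 after quantile normalization. Sparc and Fn1 together made up 83.7% to 84.3% of the summed FPKM of the 10 genes in Ad-Con and 75.03% to 77.6% in Ad-PDK4. Since Fn1 was lower by more than Sparc, the ratio of Sparc to Fn1 within a library was 1.18, 1.12 and 1.22 in Ad-Con and 2.01, 1.96 and 2.22 in Ad-PDK4. The summed level of all 10 genes was 1284, 1390 and 1256 FPKM against 896, 923 and 880.

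The thrombospondins went separate ways. Thbs1 encodes a large trimeric glycoprotein that binds CD47 and activates latent TGF-β (ENSMUSG00000040152, chromosome 2, 118111876 to 118127133). It was the gene of the set with the clear opposite direction, at 27.1, 28.2 and 25.9 FPKM in Ad-Con and 62.3, 68.7 and 70.5 FPKM in Ad-PDK4. The groups were far apart compared with the spread inside them, at 27.1 ± 1.17 and 67.2 ± 4.31 FPKM (SD, n = 3), or 2.48-fold. The log2 difference of 1.31 (SE 0.06) was the 429th largest rise. A non-coding gene on the other strand, Gm29233, overlaps 208 bases of its exons.

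Thbs2 encodes a related thrombospondin that lacks the sequence with which Thbs1 activates TGF-β (ENSMUSG00000023885, chromosome 17, 14665500 to 14694235). It stood at 62.6, 77.4 and 65.0 FPKM in Ad-Con and at 69.2, 71.0 and 71.0 FPKM in Ad-PDK4. All 3 Ad-PDK4 values lay within the range of Ad-Con. The log2 difference was 0.05 (SE 0.08). The ratio of Thbs1 to Thbs2 within a library was accordingly 0.433, 0.364 and 0.398 in Ad-Con and 0.900, 0.968 and 0.992 in Ad-PDK4, so that the pair reached nearly equal levels under the Ad-PDK4 label.

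**Figure D1:**
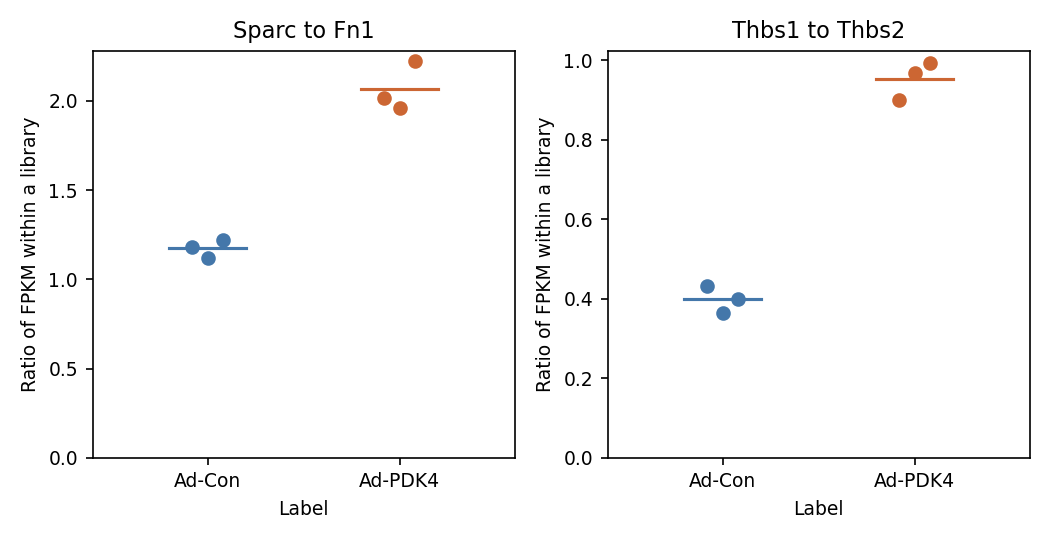
Ratio of FPKM between members within each library (vertical axes, starting at 0) for the groups labelled Ad-Con and Ad-PDK4 (points, 3 libraries each, with lines at the mean). Sparc to Fn1 runs from 1.12 to 1.22 in Ad-Con and from 1.96 to 2.22 in Ad-PDK4, and Thbs1 to Thbs2 from 0.364 to 0.433 and from 0.900 to 0.992.

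Spp1 encodes osteopontin, an integrin and CD44 ligand that synthetic smooth muscle cells and macrophages secrete (ENSMUSG00000029304, chromosome 5, 104435118 to 104441050). It was at 58.9, 57.1 and 60.9 FPKM in Ad-Con and at 67.4, 58.1 and 68.8 FPKM in Ad-PDK4. The second Ad-PDK4 library fell among the Ad-Con values, so the groups overlapped, and the log2 difference was 0.13 (SE 0.07). Another annotated gene, Gm42793, shares 7.47% of the stretches of its longest transcript.

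Tnc encodes tenascin C, a multimeric protein that is induced in wounds and loosens cell adhesion (ENSMUSG00000028364, chromosome 4, 63959785 to 64047015). Its level was low, at 1.07, 1.30 and 1.04 FPKM in Ad-Con and 1.41, 1.74 and 1.26 FPKM in Ad-PDK4. The third Ad-PDK4 library lay below the second Ad-Con library. The log2 difference was 0.34 (SE 0.17), the largest standard error of the 9 genes past the filter. A gene on the other strand, 8030451A03Rik, overlaps 176 bases of the Tnc exons.

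**Figure D2:**
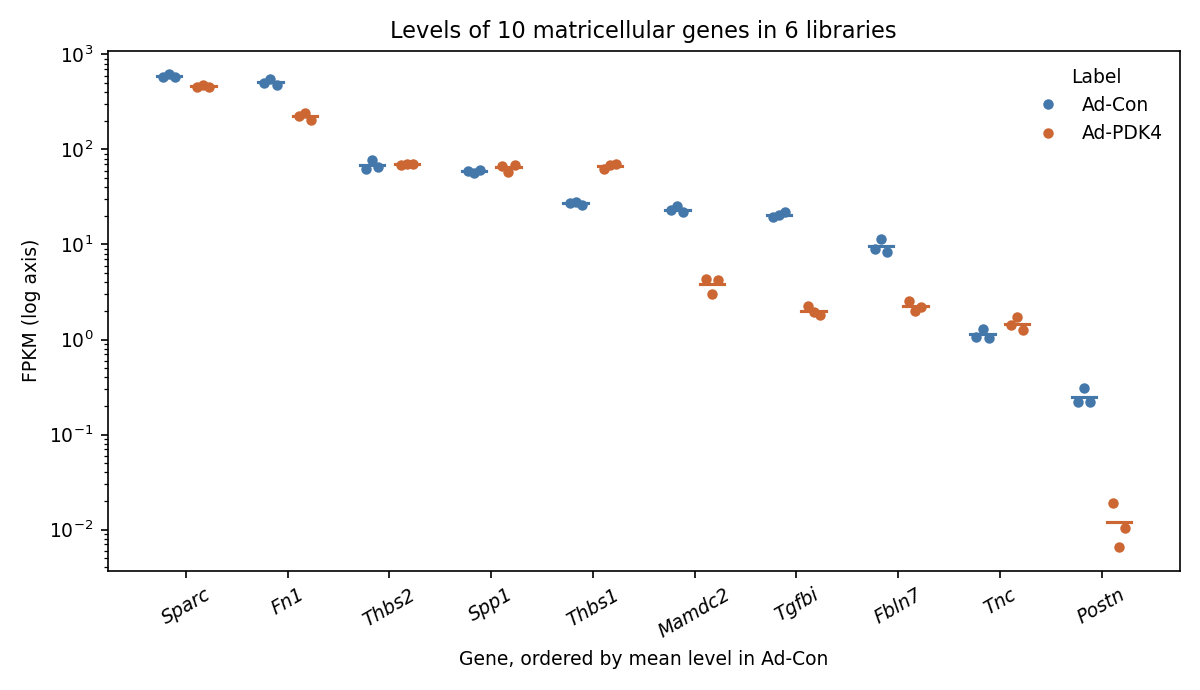
FPKM on a log axis (vertical) of the 10 genes (horizontal, ordered by their mean in Ad-Con), with 1 point for each library and a line at the mean of each group of 3. Tgfbi, Mamdc2, Fbln7, Postn, Fn1 and Sparc are lower in all Ad-PDK4 libraries, Thbs1 is higher in all of them, and Thbs2, Spp1 and Tnc overlap.

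By level in Ad-Con, Sparc and Fn1 came first, then Thbs2, Spp1, Thbs1, Mamdc2, Tgfbi, Fbln7, Tnc and Postn. Neighbours in this order did not overlap between their libraries except Mamdc2 and Tgfbi, although Sparc exceeded Fn1 by only 1.17-fold and Thbs2 exceeded Spp1 by 1.16-fold. In Ad-PDK4 the order was Sparc, Fn1, Thbs2, Thbs1, Spp1, Mamdc2, Fbln7, Tgfbi, Tnc and Postn. There the libraries of Thbs1 ran into those of Thbs2 and into those of Spp1, and the libraries of Fbln7 into those of Tgfbi. The lowest Thbs2 library, at 69.2 FPKM, lay just above the highest Spp1 library, at 68.8. Tgfbi, which stood 2.16-fold above Fbln7 in Ad-Con, thus ended level with it and 1.37-fold above Tnc.

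Of the 9 members past the filter, 5 were lower (Tgfbi, Mamdc2, Fbln7, Sparc and Fn1) and 1 was higher (Thbs1) at a Benjamini-Hochberg adjusted p below 0.05 in limma, where 20.8% of all genes tested were lower and 21.8% higher. With a fold of at least 2 as well, 4 were lower and 1 higher, against 2.68% and 3.95% of all genes. The same 5 and 1 did not overlap between groups, as 26.5% (lower) and 27.8% (higher) of all genes did not. The members were picked with this contrast known, so nothing is read from these counts. The median log2 fold change was -0.36 over the 9 and -0.003 over all 13423 genes.

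**Figure D3:**
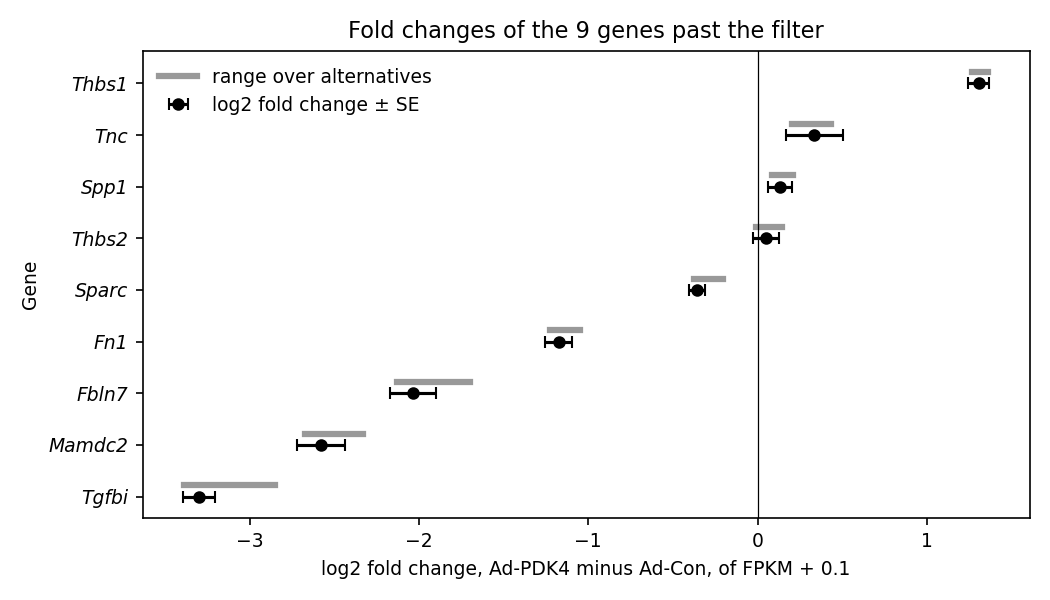
Log2 fold change of FPKM + 0.1 (horizontal axis, Ad-PDK4 minus Ad-Con, black points with standard errors) for the 9 genes past the filter, with grey bars for the range over the alternative settings run. Values run from -3.30 for Tgfbi to 1.31 for Thbs1, and the grey bar of Thbs2 alone crosses 0.

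Genes of the same class outside the set moved in both directions. Of 44 other matricellular and related matrix genes 26 passed the filter, of which 10 rose, 10 fell and 6 did not pass the test. Over all genes tested, 21.8% rose and 20.8% fell, a smaller part each way than of these 26. With a fold of at least 2 as well, 2 of the 26 rose and 4 fell (3.95% and 2.68% over all genes tested). The list was written with earlier results of these data known, so nothing is read from these shares. The median log2 fold change of the 26 was 0.03. Wisp2, a member of the CCN family of growth regulators, rose from 7.82 ± 0.155 to 31.4 ± 0.837 FPKM (SD, n = 3) (log2 change 1.99 with a limma adjusted p of 1.2e-07). Its relative Wisp1 rose by 0.70 (limma adjusted p = 1.4e-04), and Thbs3, a further thrombospondin, by 0.87 (limma adjusted p = 4.2e-04). Mgp, the matrix Gla protein that inhibits calcification of the arterial wall, went from 192 ± 19.4 to 70.7 ± 3.71 FPKM (log2 change -1.44 with a limma adjusted p of 6.2e-06). Tnxb, a tenascin, fell by 0.88, and Lgals1, a galectin, by 0.70 (limma adjusted p = 6.4e-04 and 4.8e-05), the latter being -0.32 after quantile normalization. Sparcl1, the nearest relative of Sparc, changed by -2.51 on the log2 scale (limma, adjusted p = 4.1e-03) at a low level of 1.23 ± 0.305 against 0.160 ± 0.170 FPKM, and was chosen for mention after its value was seen. The CCN gene Ctgf rose by 0.50 (limma adjusted p = 7.8e-04) and Cyr61 had -0.02 (limma adjusted p = 0.89), both also chosen after their values were seen.

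Of 31 genes for receptors of these proteins 23 passed the filter, 7 rose and 8 fell (21.8% and 20.8% over all genes tested). None of these 15 reached a fold of 2 on the log2(FPKM + 0.1) scale, as 3.95% (higher) and 2.68% (lower) of all genes did. The median of the 23 was -0.09. Cd47, a thrombospondin receptor, rose from 12.8 ± 0.408 to 22.9 ± 2.11 FPKM (log2 change 0.83 with a limma adjusted p of 9.1e-05). Egfr, a growth factor receptor that tenascin repeats can engage, rose by 0.75 and the proteoglycan Sdc4 by 0.75 (limma adjusted p = 3.4e-05 and 1.7e-04). Itgb3, the integrin chain that pairs with αv to bind osteopontin, periostin and fibronectin, fell from 2.79 ± 0.355 to 1.35 ± 0.110 FPKM (log2 change -0.98 with a limma adjusted p of 6.8e-04). With a pseudocount of 0.01 the log2 change of Itgb3 was -1.03, past a fold of 2. Itga7, a laminin-binding chain, fell by 0.62, and the proteoglycan Sdc1 by 0.38 (limma adjusted p = 7.5e-03 and 2.1e-03).

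TGF-β works through ligands held latent in the matrix, a pair of receptor kinases and SMAD factors that enter the nucleus. Of 27 genes of this pathway 26 passed the filter, with a median of 0.17. Of these, 12 rose and 5 fell (21.8% and 20.8% over all genes tested). Of the falls, 2 passed the test without Ad-Con replicate 1 and 2 when Ad-PDK4 replicate 1 was left out, 3 when either of the other Ad-Con libraries (replicate 2 or replicate 3) was, and 3 with the replicate block. Ltbp2, a matrix protein of the latent TGF-β binding family, rose from 0.365 ± 0.0818 to 2.68 ± 0.155 FPKM (log2 change 2.59 with a limma adjusted p of 2.5e-05, and 1.43 with a pseudocount of 1). Lrrc32, which holds latent TGF-β at the cell surface, rose by 0.94 and the coreceptor Eng by 0.68 (limma adjusted p = 3.2e-05 and 6.7e-05). Ltbp4, another binding protein, fell from 20.1 ± 0.924 to 5.75 ± 1.08 FPKM (log2 change -1.81 with a limma adjusted p of 3.9e-05). The ligand Tgfb1 fell by 0.34 and the receptor Tgfbr1 by 0.30 (limma adjusted p = 3.7e-03 and 0.014). Tgfbr1 was not past the threshold without Ad-Con replicate 1 (limma adjusted p = 0.053) or Ad-PDK4 replicate 1 (limma adjusted p = 0.051).

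Among 34 genes known to be induced by TGF-β, 33 passed the filter, with a median of 0.05. Of these, 14 rose and 13 fell (21.8% and 20.8% over all genes tested). In this list 5 genes were also counted in the pathway list and Ctgf in the matricellular one. Besides Ltbp2, large rises included that of Timp1, an inhibitor of matrix metalloproteinases, from 77.9 ± 4.64 to 277 ± 7.92 FPKM (log2 change 1.83, limma adjusted p = 2.8e-07). The largest falls were in the proteoglycan Vcan (-1.42, limma adjusted p = 3.2e-05), the transcription factor Klf10 (-1.39, limma adjusted p = 1.5e-06) and Col1a1, a chain of type I collagen (-1.28, limma adjusted p = 1.3e-05). Col1a1 went from 1055 ± 42.4 to 435 ± 49.6 FPKM. Genes induced by TGF-β thus moved in both directions. With a fold of at least 2 as well, 3 rose and 5 fell (3.95% and 2.68% over all genes tested). A larger part of this list than of all genes passed the test each way. The list was written with earlier results of these data known, so nothing is read from that.

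**Figure D4:**
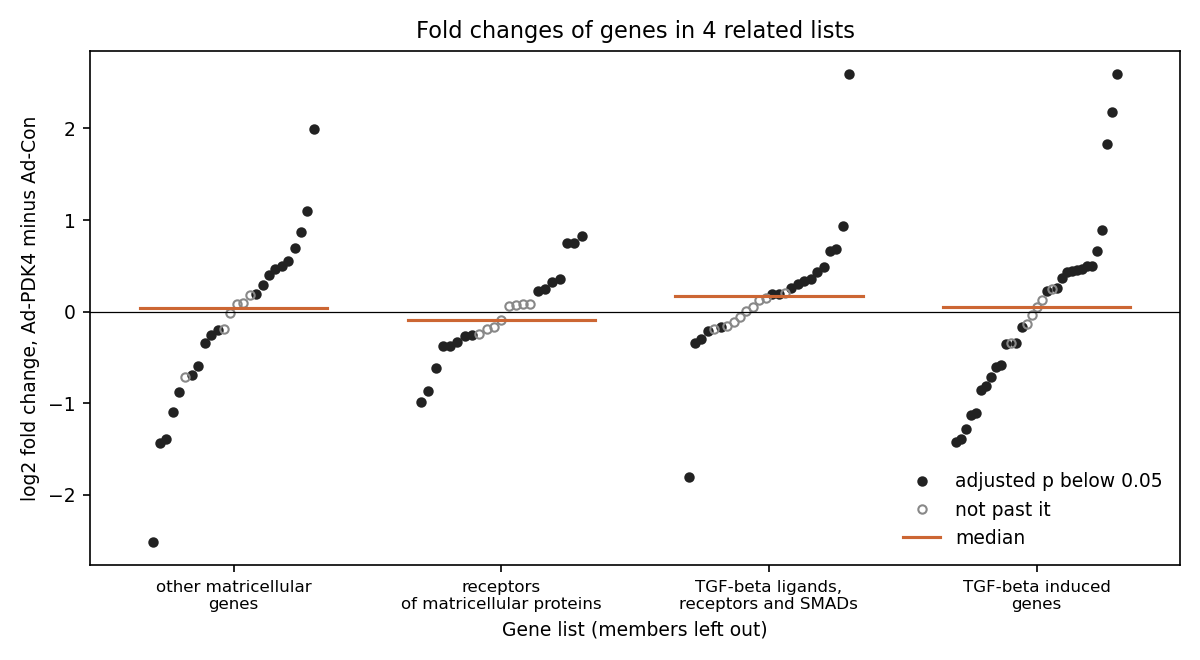
Log2 fold changes (vertical axis, Ad-PDK4 minus Ad-Con) of genes past the filter in 4 related lists (horizontal axis, members left out), sorted within each list, with filled points past an adjusted p of 0.05 and lines at the medians. The medians lie between -0.09 and 0.17, with genes past the threshold on both sides of 0 in every list.

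The 5 genes whose profile over the 6 libraries lay nearest to that of Tgfbi, by Euclidean distance of centred log2 values, were Cygb (distance 0.570), Mmp12 (0.630), Enpp3 (0.712), Gap43 (0.817) and Rdm1 (0.856). Cygb, a globin, was at 6.31 ± 0.582 against 0.744 ± 0.178 FPKM, and Mmp12, an elastin-degrading metalloproteinase, at 2.34 ± 0.155 against 0.0832 ± 0.0182 FPKM (SD, n = 3). Mamdc2 came 8th at a distance of 1.002 and Fbln7 32nd at 1.602, while Fn1 came 221st. With 2 groups of 3 libraries, this nearness mostly measures a similar size of the difference between the labels.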

How the data were processed

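RNA-seq measured 3 libraries labelled Ad-Con and 3 labelled Ad-PDK4, grouped by their treatment labels. The deposited table holds FPKM, which the authors computed for each gene and library, with gene lengths in bases. Per the labels, the processing notes name HISAT2 2.0.5, featureCounts 1.5.0-p3 and DESeq2 1.20.0 with GRCm39, but 98.3% of 54495 matched gene identifiers have GENCODE M21 coordinates, which are on GRCm38. The labels and the methods name different library kits, and strand use is not given in the sources used here. Multiplied by gene length, the FPKM of a library were whole multiples of 1 step for 100% of the non-zero values (tolerance 0.01 reads). These are called reads.

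Genes averaging 0.5 FPKM or more were all fitted with limma 3.58.1 (R 4.3.3) on log2(FPKM + 0.1), with trend and robust moderation and Benjamini-Hochberg adjustment over 13423 genes. FPKM are not counts, so no count model was the main test. Intervals of read ratios are exact (scipy 1.17.1). Transcripts were compared with GENCODE M21 and promoters taken from RefSeq. Members and lists were chosen with earlier results of these data known, and lists were written from general knowledge. List genes were named by the 3 largest rises and falls past an adjusted p of 0.05 and averaging 1 FPKM or more. The values of 1 gene that this rule names are not reported here. Alternatives changed the pseudocount, filter, scaling, moderation, block, unit or libraries.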

Additional observations from a re-analysis of the deposited data

How the results depend on the processing

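Over the 15 alternatives, 129 of 134 values for the 9 members past the filter moved by less than the spread within groups, and none of the 6 past the threshold changed sign. The alternatives with another filter, moderation or block cannot alter the log2 fold change of a gene, so their values among the 129 were fixed in advance. Leaving out a single library cannot move a group mean by more than this spread, so those values were fixed in advance as well. The groups of the 6 did not overlap, so neither a left-out library nor another pseudocount could change their sign. With a pseudocount of 1 the log2 fold changes were -2.85 for Tgfbi, -2.33 for Mamdc2 and -1.70 for Fbln7, and with quantile normalization -0.21 for Sparc and -1.05 for Fn1. Thbs2 went from -0.01 to 0.14 when single libraries were left out. Among other genes named, a pseudocount of 1 gave 1.43 for Ltbp2 and -0.40 for Itga7, and quantile normalization -0.32 for Lgals1. Of the members whose groups overlapped, Spp1 was 0.21 without Ad-PDK4 replicate 2, and Tnc was 0.21 without that library and 0.20 with a pseudocount of 1. The ratio of Postn read rates went from 0.0351 to 0.0575 as single libraries were removed. With a fold of at least 2, 530 genes were higher and 360 lower. A pseudocount of 1 left 153 lower, and a minimum mean of 5 FPKM left 258 higher and 114 lower because fewer genes were tested. That minimum also left 5 receptors lower in place of 8. The 5 lower genes of the TGF-β pathway were 3 without the filter, 3 under TPM scaling, 3 with the replicate block, and from 2 to 4 when single libraries were left out. The count was 2 when replicate 1 of either group was left out, and 3 when Ad-Con replicate 2 or 3 was. The cause was not tested. The replicate numbers did not pair the libraries (correlations of deviations between same-numbered libraries of -0.046, -0.031 and -0.001), and the replicate block moved no other count by over 1.5 times. The Postn difference rests on few reads.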
